A study of Homo sapiens with 5 samples.

Results

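Aldehyde dehydrogenases (ALDH) oxidise aldehydes to carboxylic acids with NAD or NADP as the electron acceptor. The 9 genes described here, of 36601 genes in the count table, were taken by symbol, with earlier results of these data known. The choice therefore cannot be called independent of their levels. They were ALDH1A1, ALDH1A2 and ALDH1A3, which turn retinaldehyde into retinoic acid, the mitochondrial enzymes ALDH1B1 and ALDH2, the detoxifying and lipid-handling enzymes ALDH3A1, ALDH3A2 and ALDH3B1, and the lysine-pathway enzyme ALDH7A1. Aldehydes arise from lipid peroxidation, alcohol, smoke and normal metabolism, and strong ALDH activity is widely used as a mark of progenitor-like cells in lung tumours. ALDH3A1 and several other enzymes against electrophiles are textbook targets of the stress-responsive factor NRF2, and ALDH3A1 is also a classical target of the aryl hydrocarbon receptor.

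The cells were 5 established human lung adenocarcinoma lines, A549, HCC827, H838, H1975 and H2228, for which the labels name no treatment. They were mixed, their nuclei were captured together with the 10x Multiome assay, and each nucleus gave RNA counts (unique molecular identifiers, UMIs) and counts of open chromatin (ATAC) under 1 barcode. The barcoded droplets (GEMs) were divided, with a single RNA and a single ATAC library made from either portion, so no difference has a replicate check or a p-value. The main values came from the 80% GEMs, with 6557 nuclei, and the 20% GEMs, with 1286 nuclei, were set beside them. Because the labels give no line for a nucleus, 5 clusters of RNA profiles, made without any ALDH gene, stood in for the lines. Clusters 0 to 4 held 2480, 1460, 1450, 832 and 335 nuclei, with median depths between 9153.5 UMIs in cluster 1 and 15860 in cluster 3.

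Cluster 1 was called A549-like, because all 10 markers listed for A549 were highest there and 8 passed a 4-fold rule. Cluster 4 was called HCC827-like, because EGFR and its 3 listed neighbours on the amplified segment all passed the same rule there. EGFR, a growth factor receptor, reached 7058 counts per 1000000 UMIs of the cluster (CPM) in cluster 4 and at most 460 elsewhere. Both marker lists were chosen with earlier results of these data known, so they are no independent check of the names. Clusters 0, 2 and 3 kept their numbers, and by ATAC cluster 3 split into groups of 432 and 348 nuclei, so it may hold more than 1 line. Of the listed leukocyte genes none reached 100 UMIs, of the endothelial ones PECAM1 did, and of the fibroblast ones COL1A1 and COL1A2 did, with COL1A2 at 33.0 CPM in cluster 3 and at most 1.22 elsewhere. Summed CPM over these lists ran from 0 to 1.20 for leukocyte, from 1.62 to 9.22 for endothelial and from 19.8 to 244 for fibroblast genes, with the lowest sum in cluster 4 for the first list and in cluster 1 for the others. The 5 epithelial genes summed to between 1370 and 9213 CPM. Doublets, droplets with more than 1 nucleus, were called by Scrublet from the RNA in 385 barcodes, at 7.94%, 4.52%, 0.483%, 10.3% and 8.66% of clusters 0 to 4, and 159 barcodes were called as cells in both portions.

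Between the highest and the lowest cluster, ALDH1A1 and ALDH3A1 differed most among the 9 genes, by 60.9-fold and 19.2-fold. ALDH1A1 was far higher in the A549-like cluster than in any other, ALDH3A1 was high in the A549-like cluster and in cluster 0, and ALDH1A3 was highest in the HCC827-like cluster. The remaining 6 differed by 2.04-fold to 5.92-fold between highest and lowest cluster. A gene was called restricted when its highest cluster had at least 4 times the CPM of every other cluster, with a minimum of 100 UMIs in all. By this rule 2 of the 9 members, ALDH1A1 and ALDH1A3, were called, beside 6.68% of the 16913 genes tested. The median ratio of the highest to the next cluster was 1.72 over the members and 1.28 over all tested genes. Cluster 1 was the highest for 5 of the 9 members in the 80% GEMs, beside 3235 of the 16913 tested genes. In the 20% GEMs it was the highest for 6. The member added there, ALDH1A2, had 87 UMIs in all, below the minimum, and its intervals in clusters 1 and 0 overlapped.

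**Figure D1:**
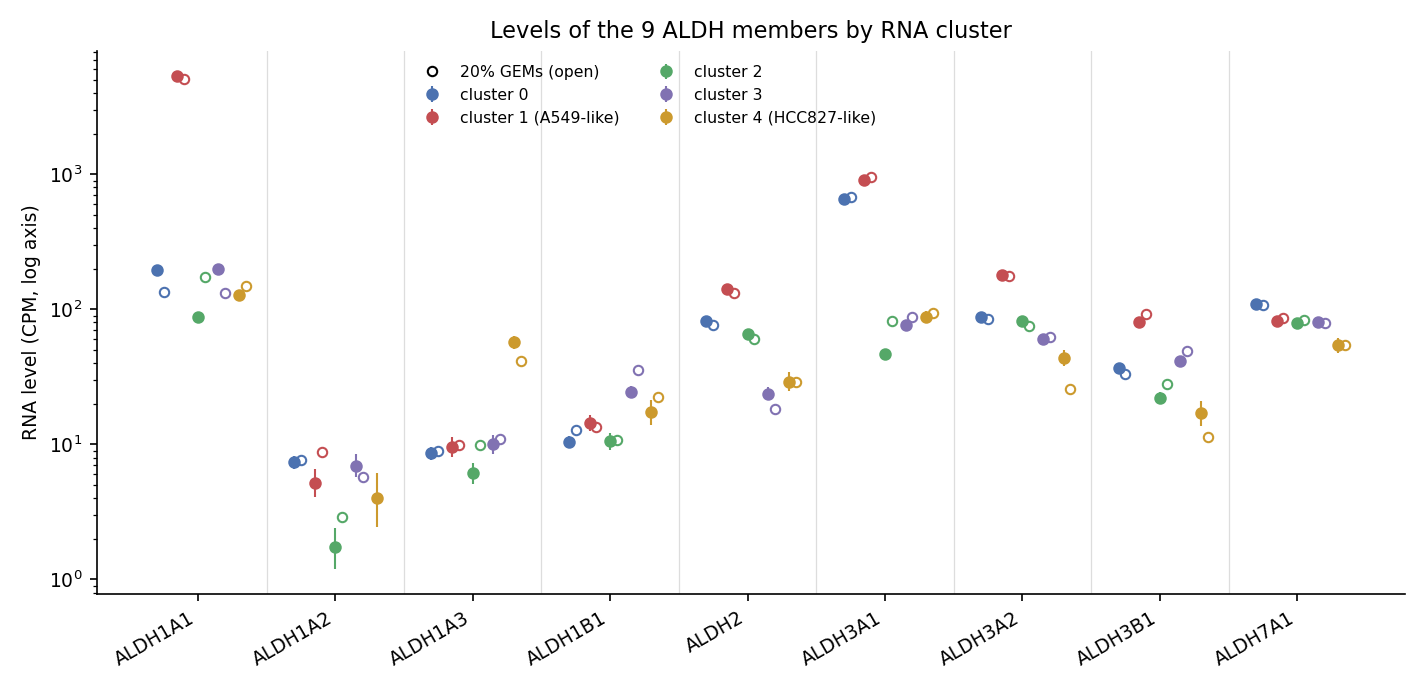
RNA level in CPM (log axis) of each member in the 5 RNA clusters. Filled points are the 80% GEMs with exact 95% Poisson intervals, which cover counting error only, and open points are the 20% GEMs, where ALDH1A2 in cluster 4 had no UMI and has no point. ALDH1A1 stands at 5365 CPM in the A549-like cluster and at 200 or less elsewhere, and ALDH3A1 is above 600 CPM in 2 clusters only.

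ALDH1A1 lies on the minus strand of chromosome 9 (chr9:72900671-73080442, hg38, GENCODE v44), and its enzyme makes retinoic acid in the cytosol. Its levels in clusters 0 to 4 were 195, 5365, 88.1, 200 and 127 CPM, from 8137, 79244, 1684, 2955 and 638 UMIs. The level in cluster 1 was 26.8-fold that of the next cluster, and its 95% Poisson interval of 5328 to 5402 CPM was far from all others. Clusters 0 and 3 could not be told apart by counting error. In the 20% GEMs the levels were 134, 5067, 174, 132 and 149 CPM in clusters 0 to 4. Cluster 1 stood out again, while the order of the low clusters did not repeat. Doublet calls made up 7.57% of cluster 2 in the 20% GEMs and 0.483% in the 80% GEMs. Their part in this change of order was not tested.

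Nearly every nucleus of the A549-like cluster carried many ALDH1A1 molecules. The median nucleus had 50 UMIs with quartiles of 38 and 66, whereas the median in each other cluster was 1 UMI. All 1460 nuclei of cluster 1 had at least 1 UMI, which gives an exact binomial interval of 99.7% to 100%. With each nucleus thinned to 5000 UMIs, 100% of the nuclei in cluster 1 and between 33.8% and 37.3% in the other clusters had an ALDH1A1 UMI. Without thinning the other shares were 63.3% to 71.4%, and 101 nuclei under 5000 UMIs were left out of the thinned values.

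In clusters 0, 3 and 4 most ALDH1A1 molecules sat in few nuclei. The 10% of nuclei with the most UMIs held 72.8%, 72% and 57.4% of the ALDH1A1 UMIs of these clusters. In cluster 2 they held 31.1%. At least 20 UMIs, a limit chosen after the values were seen, were found in 135 nuclei outside cluster 1, none of them in cluster 2, and 127 of these were doublet calls. These calls were made from the RNA counts, ALDH1A1 included. After all doublet calls were removed, ALDH1A1 stood at 82.5, 88.3, 85.5 and 78.4 CPM in clusters 0, 2, 3 and 4 and at 5675 CPM in cluster 1, a 64.3-fold difference to the next cluster. The low levels were then 1.45%, 1.56%, 1.51% and 1.38% of that in cluster 1, nearly equal in all 4 clusters. The fibrinogen chain genes FGA and FGG, from the A549 markers, kept 1.63% to 2.83% and 1.88% to 3.34% of their level, and the membrane protein gene TM4SF4 kept 1.78% to 2.29%. The other 7 A549 markers had larger shares in at least 1 cluster, up to 16.9% for CYP24A1 in cluster 2 and 50.8% for AKR1C1 in cluster 0. The ALDH1A1 shares were below those of all 10 markers except that of CYP24A1 in cluster 0, at 1.44%. Whether these UMIs came from the nuclei of those clusters was not tested.

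**Figure D2:**
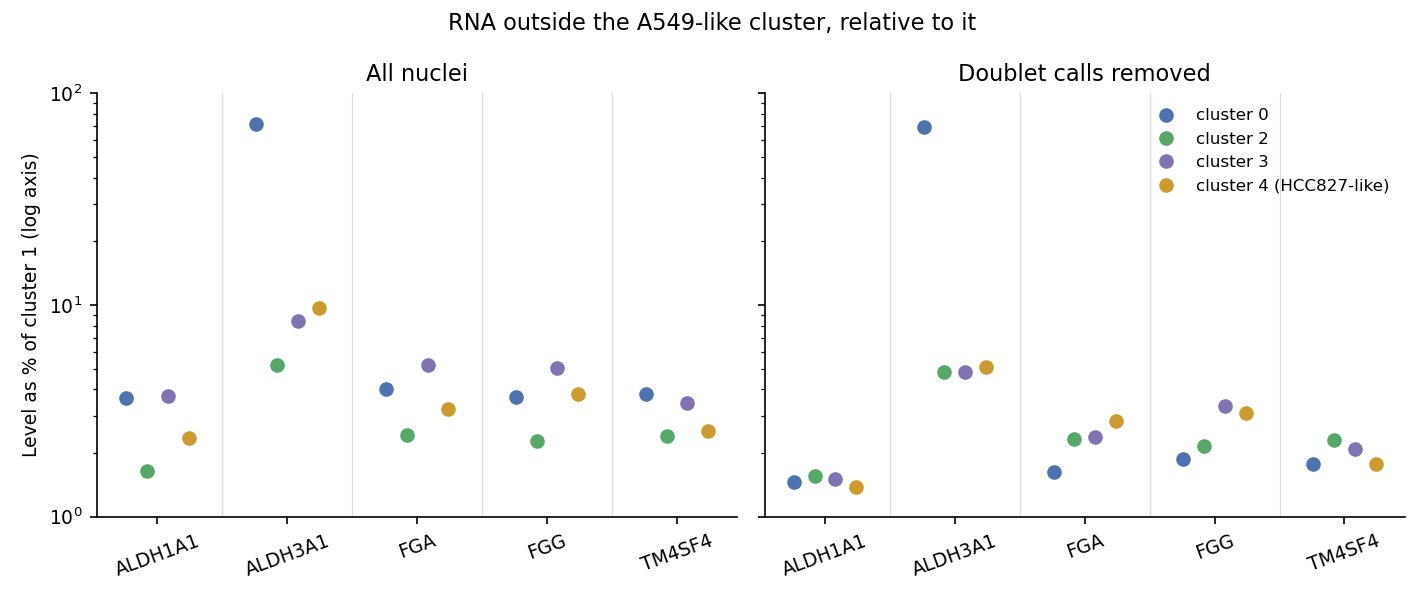
Level of 5 genes outside the A549-like cluster as a percent of their level in it (log axis), with all nuclei (left) and with doublet calls removed (right). Removing doublet calls brings ALDH1A1 to between 1.38% and 1.56% in all 4 clusters, while ALDH3A1 in cluster 0 stays at 69.7%.

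Within 50 kb of the ALDH1A1 start 16 peaks had been called, and 14 of them were highest in cluster 1, many on fewer than 100 counts. Of the 7 peaks with at least 100 counts, 5 were highest in cluster 1, beside 20.1% of all tested peaks. The same 5 passed the 4-fold rule, all in cluster 1. Over the windows of all 9 members, 10 of the 86 peaks tested were called, beside 6.76% of the 100354 peaks tested in the whole matrix. ATAC values above 0 were even numbers in 90.1% of cases, which independent counts would not be, so their Poisson intervals are too narrow. The peak at the start (chr9:72952770-72953615) had 1.61, 9.97, 0.428, 0.893 and 0.987 CPM in clusters 0 to 4, from 47, 113, 4, 9 and 4 counts. This was 6.17-fold the next cluster, and 3.63% of the nuclei in cluster 1 had a count in it.

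The strongest ALDH1A1 peaks lay away from this start, in introns of longer annotated transcripts. The peak 44261 bases upstream had 1.86, 35.7, 0.428, 0.496 and 1.97 CPM in clusters 0 to 4, an 18.1-fold difference. That 30300 bases upstream had 1.44, 30.8, 1.07, 1.49 and 0.247 CPM, a 20.7-fold difference. The third, 34470 bases upstream, had 0.619, 15.9, 0.107, 0.198 and 0.494 CPM, a 21.5-fold difference. Peaks of the 20% GEMs that overlap them had 29.9, 34.4 and 18.4 CPM in cluster 1 and at most 2.91 in any other cluster. The fifth called peak, over an exon 33689 bases downstream, had 6.44 CPM in cluster 1 and at most 0.962 elsewhere. By contrast, a pair of peaks 24331 and 25607 bases upstream was highest in cluster 0, with 7.15 and 5.67 CPM against 2.65 and 3.44 in cluster 1, although the ALDH1A1 RNA of cluster 0 fell to the level of clusters 2, 3 and 4 once doublet calls were removed.

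At least 1 of the 3 strong upstream peaks had a count in 389 of the 1460 nuclei of cluster 1, or 26.6%. Outside cluster 1 this was so in 77 of 5097 nuclei, and 40 of the 77 were doublet calls. In cluster 0 the 51 such nuclei, 30 of them doublet calls, had 1282 CPM of ALDH1A1 and the other nuclei 162, and the 21 that were not doublet calls had 260 CPM. Within cluster 1 nuclei with and without a count there hardly differed in RNA, at 5397 and 5352 CPM. ATAC counts were sparse, so nuclei without a count are not nuclei shown to have these sites closed.

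The reference sequences of the ALDH1A1 start and of these 3 peaks are printed because the start is where the gene's RNA begins in the deposited table and the 3 peaks had the largest ratios of all called peaks near the members. Sequences were searched on both strands for TGACNNNGC (NRF2), TGANTCA (AP-1), GCGTG (aryl hydrocarbon receptor), AGGTCA (retinoic acid receptors, also as 2 copies in the same direction with 2 or 5 bases between them), TTGCGCAA (C/EBP), CCAAT (the CCAAT box), TATAAA (the TATA box) and GGGCGG (SP1). The motifs of NRF2, AP-1 and the retinoic acid receptors can overlap one another. Capitals mark the matches, and a match is a description of letters, not a bound site. Promoter letters are those of RefSeq (GRCh38.p14), which listed 7 of the 9 members (not ALDH2 and ALDH3A1), and the 250 bases before the start are printed 5′ to 3′ on the gene's strand. For peaks the central 300 bases of hg38 are printed on the plus strand.
ALDH1A1 promoter, chr9:72953054-72953303, minus strand: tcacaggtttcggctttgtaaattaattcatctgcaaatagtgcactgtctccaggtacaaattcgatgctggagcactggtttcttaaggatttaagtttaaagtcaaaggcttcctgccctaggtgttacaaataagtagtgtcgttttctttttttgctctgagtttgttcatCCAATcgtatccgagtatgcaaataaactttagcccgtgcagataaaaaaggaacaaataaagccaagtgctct
ALDH1A1 peak 44261 bases upstream, chr9:72997612-72997911, plus strand: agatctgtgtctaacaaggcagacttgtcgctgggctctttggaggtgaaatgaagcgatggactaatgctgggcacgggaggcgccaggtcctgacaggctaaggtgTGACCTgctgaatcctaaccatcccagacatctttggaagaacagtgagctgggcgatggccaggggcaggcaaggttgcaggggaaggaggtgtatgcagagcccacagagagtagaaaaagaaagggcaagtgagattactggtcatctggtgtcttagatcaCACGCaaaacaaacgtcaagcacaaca
ALDH1A1 peak 34470 bases upstream, chr9:72987858-72988157, plus strand: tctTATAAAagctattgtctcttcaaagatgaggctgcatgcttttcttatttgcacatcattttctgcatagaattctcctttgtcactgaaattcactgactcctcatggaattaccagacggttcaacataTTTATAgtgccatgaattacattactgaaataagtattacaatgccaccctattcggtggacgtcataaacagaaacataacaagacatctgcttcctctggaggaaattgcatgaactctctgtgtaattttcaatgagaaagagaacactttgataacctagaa
ALDH1A1 peak 30300 bases upstream, chr9:72983656-72983955, plus strand: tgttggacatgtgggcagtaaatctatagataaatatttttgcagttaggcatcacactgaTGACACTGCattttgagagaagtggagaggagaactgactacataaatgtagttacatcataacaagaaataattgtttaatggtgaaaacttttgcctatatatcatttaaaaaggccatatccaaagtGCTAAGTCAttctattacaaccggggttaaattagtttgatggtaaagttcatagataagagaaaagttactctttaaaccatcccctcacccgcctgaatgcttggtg

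The ALDH1A1 promoter held a single match, CCAAT at 74 bases before the start, a motif in 34.6% of all 35116 promoters in the table. With 38.4% G and C it was poorer in these bases than most, as 10.1% of the promoters had less. The peak 30300 bases upstream held TGACNNNGC at 2 places, which 17.0% of the 100327 peak windows with at least 100 counts hold at least once. In the peak 44261 bases upstream AGGTCA and GCGTG each matched on the minus strand, and 20.3% and 27.2% of the windows hold them. The peak 34470 bases upstream matched TATAAA at 2 places, against 11.8% of windows with at least 1 match. None of the 4 sequences held the motifs of AP-1, SP1 or C/EBP, which says only that these letters are not in these windows.

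ALDH1A3 lies on the plus strand of chromosome 15 (chr15:100877714-100916626), and like ALDH1A1 its product makes retinoic acid. Its levels were low apart from the HCC827-like cluster. They were 8.59, 9.61, 6.12, 10.1 and 56.9 CPM in clusters 0 to 4, from 359, 142, 117, 149 and 286 UMIs. The level in cluster 4, with an interval of 50.5 to 63.9 CPM, was 5.64-fold that of cluster 3. In the 20% GEMs, where cluster 4 had 53 nuclei, the values were 8.87, 9.89, 9.85, 10.9 and 41.8 CPM, so cluster 4 was again highest but at 3.84-fold missed the rule. Without the barcodes shared with the 80% GEMs it reached 45.6 CPM and passed. At an equal depth of 5000 UMIs, 20.2% of the nuclei of cluster 4 had an ALDH1A3 UMI, and 2.59% to 4.83% of the others. Within cluster 4 the 10% of nuclei with the most UMIs held 62.6% of the total, and the highest nucleus had 16 UMIs.

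The peak at the ALDH1A3 start did not follow the RNA. At chr15:100879191-100880069 it had 10.7, 30, 17.5, 7.94 and 10.9 CPM in clusters 0 to 4, so cluster 4, with an interval of 7.89 to 14.6, was not separable from cluster 0. In the 20% GEMs the overlapping peak was highest in cluster 2, with 29.7 CPM against 19.4 in cluster 1 and 20.4 in cluster 4. None of the 7 tested peaks within 50 kb was highest in cluster 4. Of all 100354 tested peaks 16.5% were, and at that share none of 7 says little. The peak called here was open in cluster 0 instead, 22298 bases downstream in an intron of ALDH1A3 and of its antisense gene ALDH1A3-AS1. It had 4.23, 0.529, 0.534, 0.496 and 0.247 CPM, a 5.71-fold difference from 140 counts in all, and it missed the rule at 3.85-fold with ATAC clusters as labels.

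The ALDH1A3 promoter, and that of ALDH1B1 as a member with no called peak, are printed to set a G and C rich start beside that of ALDH1A1, together with the intronic peak of cluster 0.
ALDH1A3 promoter, chr15:100879581-100879830, plus strand: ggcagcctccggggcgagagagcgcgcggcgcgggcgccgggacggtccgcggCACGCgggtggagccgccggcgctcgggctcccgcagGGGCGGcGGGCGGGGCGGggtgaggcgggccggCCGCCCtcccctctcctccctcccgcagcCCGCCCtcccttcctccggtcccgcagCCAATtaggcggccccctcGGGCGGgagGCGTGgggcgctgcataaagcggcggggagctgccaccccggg
ALDH1B1 promoter, chr9:38392452-38392701, plus strand: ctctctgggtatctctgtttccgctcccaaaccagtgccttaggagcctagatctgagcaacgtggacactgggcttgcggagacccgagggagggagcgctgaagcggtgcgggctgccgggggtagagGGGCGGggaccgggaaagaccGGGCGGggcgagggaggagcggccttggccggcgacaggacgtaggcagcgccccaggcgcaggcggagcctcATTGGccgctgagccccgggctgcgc
ALDH1A3 peak 22298 bases downstream, chr15:100902462-100902761, plus strand: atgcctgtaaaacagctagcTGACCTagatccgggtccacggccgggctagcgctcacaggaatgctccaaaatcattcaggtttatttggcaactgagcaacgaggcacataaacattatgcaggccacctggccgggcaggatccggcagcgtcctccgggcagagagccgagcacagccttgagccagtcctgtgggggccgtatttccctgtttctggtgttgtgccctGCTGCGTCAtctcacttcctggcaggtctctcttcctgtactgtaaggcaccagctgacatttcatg

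The ALDH1A3 promoter had 82.4% G and C, with 98.6% of promoters below it. It held GGGCGG at 6 places and GCGTG at 2, and CCAAT at 71 bases before the start. The ALDH1B1 promoter had 70.4% G and C and held GGGCGG at 2 places before its start and CCAAT on the minus strand at 26 bases before it. GGGCGG occurs in 45% of all promoters, GCGTG in 36.5%. The intronic peak held TGACNNNGC and AGGTCA on the minus strand, each at 1 place.

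ALDH1A2, the main retinoic acid producing enzyme of the embryo, was the least detected member. On the minus strand of chromosome 15 (chr15:57953424-58497866), its levels were 7.37, 5.21, 1.73, 6.97 and 3.98 CPM in clusters 0 to 4, from 308, 77, 33, 103 and 20 UMIs. Clusters 0 and 3 overlapped in their intervals, while cluster 2, at 1.19 to 2.42 CPM, lay below the others. Levels in the 20% GEMs were 7.63, 8.85, 2.90, 5.70 and 0 CPM, with cluster 1 highest and cluster 4 lowest, so neither end of the order repeated. By ATAC cluster 3 split into nuclei at 3.08 and nuclei at 12.2 CPM, so its level is a mean over unlike nuclei. The deposited table spreads the ALDH1A2 starts over 265163 bases, and 21 peaks fell into its window, of which 10 were tested and none was called. The one with the most counts (chr15:58260606-58261473, intronic) had 7.53, 1.24, 9.08, 1.98 and 1.73 CPM, so it was open in clusters 0 and 2, the latter being the cluster with the least ALDH1A2 RNA in the 80% GEMs.

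Genes that handle retinoids around these enzymes were taken from a list of 28, of which 21 had at least 100 UMIs. Of these 21, 3 passed the 4-fold rule, beside 6.68% of the 16913 genes tested, and 2 of the 3 are described here. The median ratio was 1.47, against 1.28 over all genes. RARB, a retinoic acid receptor whose own gene is a classical retinoic acid target, had 61.7 CPM in cluster 1 and at most 4.5 elsewhere, a 13.7-fold difference. RBP4, which carries retinol in blood, had 67.1 CPM in cluster 1 and at most 7.17 elsewhere. Without passing the rule, STRA6, a retinol importer, had 21.1 CPM in cluster 1 against at most 6.84, and DHRS3, which turns retinaldehyde back into retinol, had 65.9 against at most 32.2. The retinoic acid degrading enzyme CYP26B1 had 11 CPM in cluster 1 and 7.90 in cluster 2, and CYP26A1 had 16 UMIs in all. Other genes of the list went another way, and CRABP2 was lowest in cluster 1, at 12.9 CPM against 73.1 in cluster 3. RXRA had 60.9 CPM in cluster 0 against 24.6 in cluster 1, and NRIP1 had 530 in cluster 4 against 272 in cluster 1. Of the 21 tested genes 6 were highest in cluster 0, 6 in cluster 1, 1 in cluster 2, 5 in cluster 3 and 3 in cluster 4. Over all 16913 tested genes these numbers were 3736, 3235, 4296, 3082 and 2564.

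The mitochondrial enzyme ALDH2, best known for clearing acetaldehyde, varied 5.92-fold between its highest and lowest cluster. Located on the plus strand of chromosome 12 (chr12:111766887-111817532), it reached 81.6, 141, 66.0, 23.8 and 29.2 CPM in clusters 0 to 4, and 76.1, 132, 60, 18.2 and 28.9 CPM in the 20% GEMs, which is the same order. The intervals of clusters 0, 1 and 2 did not overlap one another, and those of clusters 3 and 4 did. At 5000 UMIs 49.7% of the nuclei of cluster 1 had an ALDH2 UMI and 9.89% of those of cluster 3. The start peak (chr12:111766611-111767372) varied less, with 12.9, 14.0, 12, 7.14 and 10.6 CPM. Cluster 3 had the lowest value in both measures, but its interval overlapped that of cluster 4 in each. None of the 11 tested peaks in the ALDH2 window was called.

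ALDH1B1, the other mitochondrial member, which also acts on acetaldehyde, was the member with its highest level in cluster 3. It lies on the plus strand of chromosome 9 (chr9:38392702-38398661). Its levels were 10.5, 14.4, 10.6, 24.4 and 17.3 CPM, from 439, 212, 202, 361 and 87 UMIs, and in the 20% GEMs 12.8, 13.5, 10.7, 35.3 and 22.5 CPM. Cluster 3 was therefore highest in both portions, at 22.0 to 27.1 CPM by the interval in the 80% GEMs. Its interval overlapped that of cluster 4 in the 20% GEMs, and also in the 80% GEMs without doublet calls. Both ATAC groups of cluster 3 were above the other clusters, at 27.1 and 21.3 CPM. The interval of the second overlapped that of the ATAC cluster holding most of cluster 4, at 17.3 CPM. The ALDH1B1 start peak was highest in cluster 1, with 36.4 CPM. Its lowest value was the 20.6 CPM of cluster 3, but the interval there overlapped those of clusters 2 and 4. None of the 10 tested peaks of ALDH1B1 was called.

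ALDH7A1, which acts in lysine breakdown, was the most even of the better detected members. The gene is on the minus strand of chromosome 5 (chr5:126531200-126595362), and its levels were 110, 82.3, 78.8, 80.8 and 54.1 CPM in clusters 0 to 4, and 108, 86.9, 83.5, 79.9 and 54.6 CPM in the 20% GEMs, in nearly the same order. Clusters 1, 2 and 3 overlapped in their intervals, cluster 0 lay above them and cluster 4 below. The start peak was more even than the RNA, with 33.3, 37.7, 31.2, 32.2 and 31.8 CPM and overlapping intervals in all clusters. Of its 4 tested peaks none was called.

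ALDH3A1, a cytosolic enzyme for aromatic and medium-chain aldehydes, split the clusters into a high pair and a low trio. It lies on the minus strand of chromosome 17 (chr17:19737984-19748943). Its levels were 654, 907, 47.1, 76.0 and 87.9 CPM in clusters 0 to 4, from 27307, 13391, 901, 1123 and 442 UMIs. In the 20% GEMs they were 674, 962, 82.6, 87.1 and 94.8 CPM. Because clusters 0 and 1 were both high, the ratio of the highest to the next was 1.39 and the 4-fold rule was missed. With doublet calls removed, clusters 2, 3 and 4 came to 46.1, 46.2 and 48.6 CPM, or 4.82%, 4.82% and 5.08% of the 957 CPM in cluster 1, and cluster 0 was at 668 CPM. The values in the last 3 clusters were nearly equal, and their source was not tested. The median nucleus had 8 UMIs in cluster 0 and 8 in cluster 1, at median depths of 15397 and 9153.5 UMIs.

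Detection of ALDH1A1 and ALDH3A1 in the same nucleus followed the clusters. At 5000 UMIs per nucleus, 93.4% of the nuclei of cluster 1 had UMIs of both and none had ALDH3A1 alone. In cluster 0, 57.6% had ALDH3A1 alone, 29.6% both and 8.56% neither. In clusters 2, 3 and 4 neither was found in 50.5%, 50.2% and 49.4%. Spearman's rho of the pair over the nuclei of a cluster lay between 0.00 and 0.13. In cluster 1 rho was 0.13, with thinned means of 27.7 ALDH1A1 and 4.62 ALDH3A1 UMIs, and this weak relation was not tested further. Elsewhere ALDH1A1 averaged at most 0.930 UMIs, and in counts this sparse rho is no finding.

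Chromatin at the farther ALDH3A1 start was more open in clusters 0 and 1 than in the rest, and more open in cluster 1 than in cluster 0. The peak there (chr17:19748052-19748953) had 15.5, 66.8, 1.07, 2.68 and 1.48 CPM in clusters 0 to 4, from 452, 757, 10, 27 and 6 counts. Cluster 1 was 4.30-fold above cluster 0, although its RNA was 1.39-fold that of cluster 0. A count in this peak was found in 22.9% of the nuclei of cluster 1, in 8.71% of those of cluster 0 and in at most 1.56% of the others, and of the 13 and 3 nuclei with a count in clusters 3 and 4, 8 and 3 were doublet calls. In the 20% GEMs the overlapping peak had 19.3, 82.2, 5.69, 1.20 and 2.91 CPM. The second start peak (chr17:19744642-19745548) had 9.17, 26.9, 1.60, 7.94 and 4.20 CPM, with overlapping intervals in clusters 0 and 3, so it did not set cluster 0 apart. The intergenic peak 4337 bases upstream had 19.6, 61.0, 30.6, 25.1 and 25.7 CPM, so it was open in every cluster.

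The window of ALDH3A1 held 20 peaks, 16 of them tested and 4 called, in 3 different clusters. Besides the start, an intergenic peak 20386 bases downstream was called in cluster 0, with 9.55 CPM against at most 1.92 elsewhere. The remaining 2, 17739 bases downstream and 21372 bases upstream, were called in cluster 2, with 6.41 and 7.37 CPM against at most 1.59 and 1.79. Both ratios, 4.04 and 4.13, were close to the threshold, and both peaks missed it with ATAC clusters as labels. Cluster 2 had the least ALDH3A1 RNA with all nuclei. Without doublet calls the RNA of clusters 2, 3 and 4 was nearly equal, at 46.1, 46.2 and 48.6 CPM. Part of this window is shared with ALDH3A2, with 2 peaks in both.

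**Figure D3:**
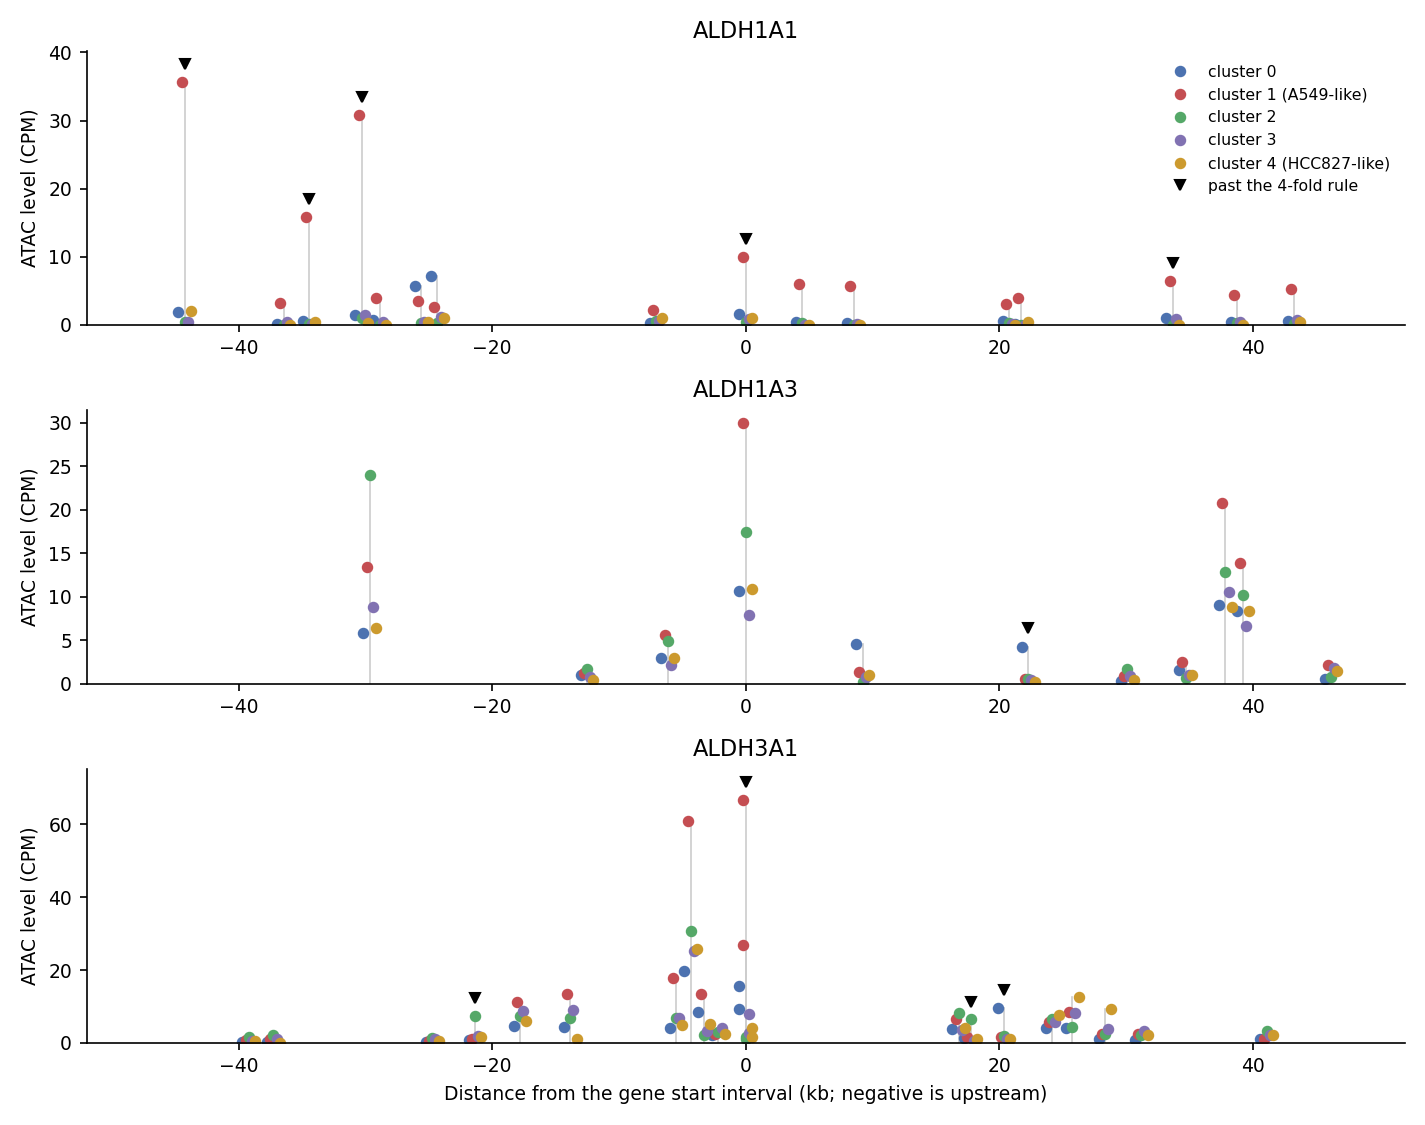
ATAC level in CPM of each peak within 50 kb of the starts of ALDH1A1, ALDH1A3 and ALDH3A1, by distance from the start in kb (negative is upstream), with 1 point per RNA cluster and triangles on peaks past the 4-fold rule. The called ALDH1A1 peaks are all led by the A549-like cluster, the called ALDH1A3 peak by cluster 0, and those of ALDH3A1 by clusters 0, 1 and 2.

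ALDH3A2, the fatty aldehyde dehydrogenase of the endoplasmic reticulum, was highest in cluster 1 and lowest in cluster 4. It lies on the plus strand of chromosome 17 (chr17:19648136-19685760), next to ALDH3A1. Its levels were 87.4, 179, 82.3, 60.2 and 43.8 CPM in clusters 0 to 4, and 84.8, 177, 75.6, 62.2 and 25.7 CPM in the 20% GEMs, which is the same order. The highest was 2.05-fold the next, so it passed at 2-fold, as did 17.5% of all tested genes, and not at 4-fold. Cluster 3 again split by ATAC, into 76.3 and 34.9 CPM. Its start peak (chr17:19648299-19649201) had 28.9, 89.7, 77.5, 61.7 and 62.7 CPM, so cluster 0 was the least open, while its RNA was below that of cluster 1 and overlapped that of cluster 2 in its interval.

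ALDH3B1, which acts on aldehydes from membrane lipids, had 36.5, 80.6, 22.1, 41.6 and 17.1 CPM in clusters 0 to 4. In the 20% GEMs it had 33.2, 92.7, 28.1, 49.3 and 11.3 CPM. It lies on the plus strand of chromosome 11 (chr11:68008578-68029282). Cluster 1 was 1.94-fold above cluster 3, and clusters 0 and 3 overlapped in their intervals, as did clusters 2 and 4. Its start peak with the most counts (chr11:68014245-68015136) had 60.1, 76.2, 60.6, 59.5 and 66.6 CPM. The smallest of its 4 start peaks (chr11:68008126-68008960), at the outermost start, had 5.60, 7.85, 3.85, 1.98 and 1.23 CPM. Like the RNA, it was highest in cluster 1 by CPM. By share of nuclei with a count cluster 1 was not above cluster 0, with 46 of 1460 against 89 of 2480. Only 12 nuclei of cluster 3 and 3 of cluster 4 had a count in this peak, so its lowest cluster cannot be named. None of its 17 tested peaks was called.

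In all 8 members other than ALDH1A2, the start peak with the most counts was highest in cluster 1, also for ALDH1A3, ALDH1B1 and ALDH7A1, whose RNA was highest elsewhere. For ALDH2, ALDH3B1 and ALDH7A1 the intervals of cluster 1 overlapped those of other clusters. Among the peaks of the 20% GEMs, those of ALDH1A3 and ALDH7A1 were highest elsewhere, the latter with 49.5 CPM in cluster 4 against 48.3 in cluster 1. Cluster 1 also held more of its ATAC counts at gene starts in general. Peaks at gene starts took 36.8%, 42.7%, 39.8%, 33.9% and 36.1% of the ATAC counts of clusters 0 to 4. Of the 15526 tested peaks at gene starts 30.9% were highest in cluster 1, against 20.1% of all tested peaks. The part of this in the members' values was not tested.

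**Figure D4:**
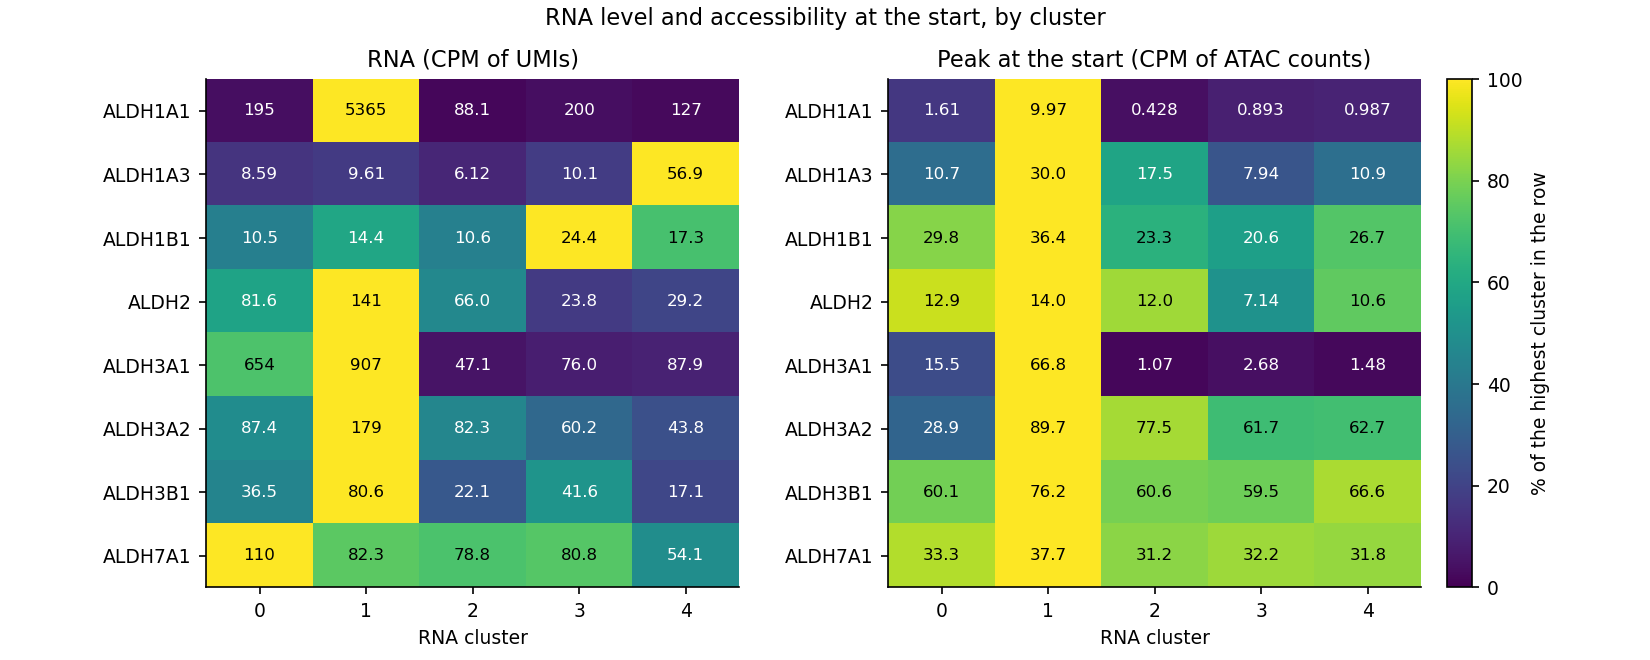
RNA level (left, CPM of UMIs) and ATAC level of the start peak with the most counts (right, CPM of ATAC counts) in the 5 RNA clusters for 8 members. ALDH1A2 is left out because its starts are spread over 265163 bases, and colours give the percent of the highest cluster in each row. Every start peak is highest in cluster 1, while the RNA of ALDH1A3, ALDH1B1 and ALDH7A1 is highest in clusters 4, 3 and 0.

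The measure of likeness between genes, Pearson's r of log2(CPM + 1) over the 5 clusters, has only 5 points, all from 1 library. Genes with r of at least 0.99 numbered from 1 for ALDH3B1 to 46 for ALDH1A1. Among 12423 genes with at least 500 UMIs, those most like ALDH1A1 were GPRIN3, CPLX2 and ANXA13 (r of 0.9998, 0.9996 and 0.9993, and 1.00, 0.93 and 0.99 in the 20% GEMs). Most like ALDH3A1 were GCNT3, KYNU and BCL11B, with 0.98, 1.00 and 0.97 in the 20% GEMs, and most like ALDH1A3 were KDM3A, LINC02802 and PSPH, with 0.83, 0.94 and 0.95. For ALDH2 they were SLC46A3, MLKL and MED29 (0.89, 0.93 and 0.97), for ALDH1B1 RANBP1, WDR4 and PHB (0.97, 0.40 and 0.97) and for ALDH7A1 MC1R, FKBP9 and NPIPA1 (0.45, 0.97 and 0.94). For ALDH3A2 they were TACC1, INTS10 and ENO4 (0.77, 0.81 and 0.76) and for ALDH3B1 USP9X, S100A3 and LXN (0.96, 0.87 and 0.93). For ALDH1A2 the values of IFI27L1, DGKE and IER3 came to -0.49, -0.30 and 0.74 in the 20% GEMs, so that 2 of the 3 changed sign.

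Of 10 further ALDH genes, 9 had at least 100 UMIs and none passed the 4-fold rule (median ratio 1.38). Of all tested genes 6.68% passed it, and at that share 0 of 9 says little about these genes. The nearest was ALDH1L2, a mitochondrial folate enzyme, at 22.6 CPM in cluster 2 and at most 10.6 elsewhere. ALDH18A1, which starts proline synthesis, had 58.2 CPM in cluster 1 and 29.3 to 40.8 in the others, and ALDH6A1, of valine breakdown, had 19.7 CPM in cluster 0 and 2.35 in cluster 2. Highest levels of the 9 fell 2 times into cluster 0, 3 times into cluster 1 and 4 times into cluster 2. Of all 16913 tested genes, 3736, 3235 and 4296 were highest in these clusters.

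Most of the listed NRF2 targets were highest in cluster 0 or 1, where ALDH3A1 was high. Of 24 genes, all were tested and 2 passed the 4-fold rule, AKR1B10 and AKR1C2, both aldo-keto reductases that also belong to the A549 markers. AKR1B10 had 4224 CPM in cluster 1 and at most 461 elsewhere, and AKR1C2 had 1911 and at most 478, at the threshold, although the AKR1C genes are near copies and their reads may be divided wrongly. In all, 12 of the 24 were highest in cluster 1 and 9 in cluster 0, with a median ratio of 1.35, while of all 16913 tested genes 3235 were highest in cluster 1 and 3736 in cluster 0. AKR1B10, AKR1C1, AKR1C2 and AKR1C3, all listed as A549 markers too, were among the 12 highest in cluster 1. The 2 calls of 24 stand beside the 6.68% of all tested genes. GCLC, of glutathione synthesis, had 359 and 191 CPM in clusters 0 and 1 and at most 63.6 elsewhere. The cystine importer SLC7A11 had 323 and 456 CPM against at most 66.4, and the transporter ABCC3 had 366 and 494 against at most 121, so these 3 genes divided the clusters as ALDH3A1 did. GCLM was instead highest in cluster 2, among the clusters low in ALDH3A1, at 444 CPM against 385 and 355 in clusters 0 and 1. PIR had 140 CPM in cluster 2 against 139 in cluster 1. HMOX1, which breaks down heme, was highest in cluster 3, at 89.0 CPM against at most 43.8.

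For the aryl hydrocarbon receptor, of 9 listed genes 6 were tested and none was called (median ratio 1.57), beside 6.68% of all tested genes. Of the 6, 3 were highest in cluster 0 and 3 in cluster 2, beside 3736 and 4296 of all 16913 tested genes. CYP1B1, an inducible cytochrome P450, had 182, 53.6, 226, 141 and 37.8 CPM in clusters 0 to 4, and AHRR, the receptor's repressor, had 25.1 CPM in cluster 2 and at most 11.7 elsewhere. CYP1A1 had 7 UMIs in all and CYP1A2 none. The receptor AHR itself was highest in cluster 0, at 478 CPM, with 184 in cluster 1.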

How the data were processed

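Per the file headers and the submitters' processing notes, the deposited matrices hold whole-number counts of RNA UMIs per gene and ATAC counts per peak. The counts are not normalized and cover barcodes called as cells. Whether an ATAC count is a fragment or a fragment end is not stated. The authors made the matrices with Cell Ranger ARC 2.0.0 on hg38. Peaks were called per portion. Which gene annotation they used: not given in the sources used here. The combined and long-read files were not used here.

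RNA UMIs (95455518 in the 80% and 14346346 in the 20% GEMs) were log-normalized, and 2000 variable genes without ALDH genes gave 30 principal components. Louvain clusters of a graph of 20 neighbours came from Seurat 5.3.0 at the lowest resolution with at least 5 clusters (0.05, seed 0). Nuclei of the 20% GEMs took the most correlated cluster profile, which, applied to the 80% nuclei, matched the original label for 97.4%. ATAC counts (63920767 and 12850543) were clustered after TF-IDF and LSI, components 2 to 30. Doublets came from Scrublet in scanpy 1.11.5. CPM are summed counts of a cluster per 1000000. Clusters below 3 counts were set to 3 counts in ratios. Intervals are exact 95% Poisson or binomial intervals and cover counting error only. Peaks within 50 kb of the start interval in the deposited feature table, with a minimum of 100 counts, were tested by the 4-fold rule and placed with GENCODE v44. Of 158342 peaks, 158289 lay on chromosomes of the reference.

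The members and lists were chosen with earlier results of these data known. Named were all members, the start peak with the most counts, called peaks up to 5 per member, called genes of each list up to 10 (1 called gene of the retinoid list is not reported here), and the 3 genes most like each member. The other list genes and peaks given were picked after their values were seen. The 4-fold rule was tested on simulated RNA counts with known folds. These had Poisson error only, so the test does not cover doublets, spread between nuclei or ATAC counts. Alternatives covered the fold, depth, doublets, ATAC clusters, clustering settings, scaling, portion, count minimum and window.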

Additional observations from a re-analysis of the deposited data

How the results depend on the processing

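No paired analysis was possible because each portion had a single RNA and a single ATAC library. The removal of doublet calls together with nuclei outside the main ATAC clusters of their RNA cluster was added after seeing the data. ALDH1A1 and ALDH1A3 were the 2 members called with the depth filter, without doublet calls, with ATAC clusters, with ALDH genes kept in the clustering, with 5 other seeds, with the mean of CPM per nucleus, with no UMI minimum and in the 20% GEMs without shared barcodes. At 10-fold 1 member was called, in the full 20% GEMs 1, ALDH1A1 both times, and at a resolution of 0.8, with 19 clusters, 0. Of all tested genes 2.26% passed at 10-fold. The number of members highest in cluster 1 was 5 with the depth filter, both removals of nuclei and ATAC clusters. It was also 5 with the mean of CPM per nucleus. In the 20% GEMs it was 6, with ALDH1A2, at 87 UMIs in all, among them. Called peaks near members numbered 10, with 19 at 2-fold, 3 at 10-fold, 18 with no count minimum and 4 with presence per nucleus, where 57 in place of 86 peaks reached the minimum. They numbered 7 with ATAC clusters, 8 with the added alternative, 9 without doublet calls and 10 with the depth filter, all of them among the 10. Of all tested peaks in the matrix, 22.3% passed at 2-fold and 1.58% at 10-fold. The 19 of 86 at 2-fold were therefore near the share of all peaks. The window held 123 peaks at 50 kb, 54 at 10 kb, 196 at 100 kb and 189 with all GENCODE transcript starts. Of 45 pairs of member and cluster, 20 had UMIs in at least 50% of nuclei, and 4 after thinning to 5000 UMIs. Apart from these counts, 13 of 45 levels left their Poisson interval and 5 of 54 ratios changed side or moved by over 1.5 times, 3 of them for ALDH1A1, at 17.8 to 65.2. After thinning, 44 of 45 shares left their interval. With 1 library of each kind, counting intervals say nothing of variation between cultures, and ATAC counts under 10 per cluster, as at the ALDH1A1 start outside clusters 0 and 1, allow no order among those clusters.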
